A study of Drosophila melanogaster with 2 samples.

Results

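The genes examined were zelda (zld), Trithorax-like (Trl), grainy head (grh) and odd-paired (opa), 4 of the 13968 protein-coding genes of the annotation, chosen by name because each encodes a pioneer transcription factor of the fly embryo. A peak was assigned to a gene when its summit, the position of highest signal in the peak, lay inside the gene or within 2 kb of either end. By this rule 8 of the 4202 peaks of the conservative list belonged to the 4 genes. Trl had 4 of them, zld 2 and grh 2, and opa had none.

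The data are chromatin immunoprecipitations from whole Drosophila melanogaster embryos, aged 0 to 24 h, of a strain named chm-GFP that carries an insertion targeting chm. This gene, chameau, encodes a histone acetyltransferase, which the strain makes as a fusion with eGFP, and an anti-GFP antibody recovered the chromatin, which had been sonicated to a labelled size range of 200 to 800 bp. There was 1 group, with biological replicates 1 and 2, and no other genotype, age or treatment to set it against; a control experiment that the labels name as possible was not used here. Every peak is thus a place where anti-GFP signal was called in a mixture of all embryonic cell types and ages. The lists alone do not tell recovery of the fusion protein apart from background. Fewer cells bound at a site cannot be told apart from less binding per cell. Read totals are not part of these lists, and the depth behind each signal is unknown.

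Pioneer factors recognise their DNA sites in closed, nucleosome-bound chromatin and make the region accessible to other factors. Zelda, a zinc finger protein supplied by the mother, opens the regulatory regions of the first genes transcribed in the zygote. GAGA factor, the product of Trl, binds GA-rich repeats and helps recruit nucleosome remodellers. Grainyhead opens enhancers in epithelia and is needed for the epidermal barrier, and Odd-paired, a pair-rule zinc finger protein, opens enhancers as segments form. The genes themselves are regulated in time and space, and the question addressed here is where peaks of the acetyltransferase fusion lay at them. Background on these factors is general knowledge of the field and was not measured in these samples.

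Sequences around summits at Trl, zld and opa show what kind of DNA lay at the peaks. They are from release 6 of the genome (dm6) as held by RefSeq, written 5′ to 3′ on the strand of the gene, with 100 bp on each side of the summit and without bases annotated as untranslated exon. Capitals mark GAGAG, the GAGA factor letters, which read as CTCTC where the match is on the opposite strand, or ACCGGTT, the Grainyhead letters, read as AACCGGT on the opposite strand. The first is the strongest peak at any of the 4 genes, in an intron of Trl, at chr3L:14759401-14759601 (minus strand), and it holds neither.
Trl intron: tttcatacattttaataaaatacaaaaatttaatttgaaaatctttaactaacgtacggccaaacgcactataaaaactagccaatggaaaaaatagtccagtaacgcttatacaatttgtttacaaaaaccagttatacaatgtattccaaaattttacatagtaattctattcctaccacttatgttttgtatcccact
The next is just upstream of the main start of Trl, at chr3L:14758038-14758238 (minus strand), and is shown because it is the peak with most GAGAG matches.
Trl upstream: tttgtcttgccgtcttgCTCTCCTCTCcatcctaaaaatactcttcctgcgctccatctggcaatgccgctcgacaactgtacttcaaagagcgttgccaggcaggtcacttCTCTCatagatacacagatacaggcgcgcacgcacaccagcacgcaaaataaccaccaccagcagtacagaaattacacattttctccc
A weaker peak overlapped that one, with its summit window at chr3L:14758247-14758447 (minus strand), and is shown because the Grainyhead letters lay beside its summit.
Trl upstream, second: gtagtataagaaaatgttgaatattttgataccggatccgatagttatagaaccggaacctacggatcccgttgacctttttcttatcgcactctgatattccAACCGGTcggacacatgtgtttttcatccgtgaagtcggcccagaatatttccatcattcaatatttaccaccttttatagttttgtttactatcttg

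Both zld peaks and the opa peak of the pooled list are shown to set AT-rich intronic against GC-rich promoter sequence. The intronic zld peak lay at chrX:19770234-19770434 (minus strand).
zld intron: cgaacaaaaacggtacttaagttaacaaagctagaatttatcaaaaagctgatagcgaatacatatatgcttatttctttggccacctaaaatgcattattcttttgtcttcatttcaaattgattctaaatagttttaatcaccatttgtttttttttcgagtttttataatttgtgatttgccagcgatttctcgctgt
The zld promoter peak is shown over chrX:19783549-19783714 (minus strand), with the 35 annotated untranslated bases of its window left out.
zld promoter: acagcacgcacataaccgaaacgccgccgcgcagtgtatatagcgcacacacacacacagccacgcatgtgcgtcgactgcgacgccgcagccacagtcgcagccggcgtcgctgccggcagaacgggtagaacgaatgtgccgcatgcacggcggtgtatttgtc
The opa window at chr3R:4852349-4852549 (plus strand) has 1 GAGAG, 18 bp downstream of the summit.
opa promoter: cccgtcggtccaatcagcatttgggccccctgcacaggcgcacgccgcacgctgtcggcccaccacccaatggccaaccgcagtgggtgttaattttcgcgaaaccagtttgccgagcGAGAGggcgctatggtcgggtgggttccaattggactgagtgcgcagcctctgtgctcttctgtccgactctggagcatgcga

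The text below gives the deposited signal of a peak, whose scale is not stated, and compares signals within a list. In the conservative list 4195 peaks lay on the main chromosome arms, with a median signal of 94.1. Ranks are by signal among all peaks of a list, 4202 in the conservative one. Peaks at 3 of the 4 genes were found in this list, where 29.0% of all protein-coding genes had one (4050 of 13968, 95% Wilson interval 28.2 to 29.8%). The genes examined are long, between 13.1 and 41.7 kb. Among the 1985 genes of 10 kb or longer, a limit chosen after the values were seen, 52.4% had a peak, so 3 of 4 is near what long genes show and is not a result about these genes. A peak within 500 bp of a transcript start was found at zld and Trl, 2 of 4 genes, against 16.8% of all genes. The pooled list had a peak at all 4 genes (35.7% of all genes), the list of replicate 1 at 3 (24.4%) and the list of replicate 2 at 4 (29.4%). No share among genes of 10 kb or longer was taken for the promoter, pooled and replicate counts. With long genes, and 2 starts at zld and 4 at Trl, those counts are not a result about these genes.

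**Figure D1:**
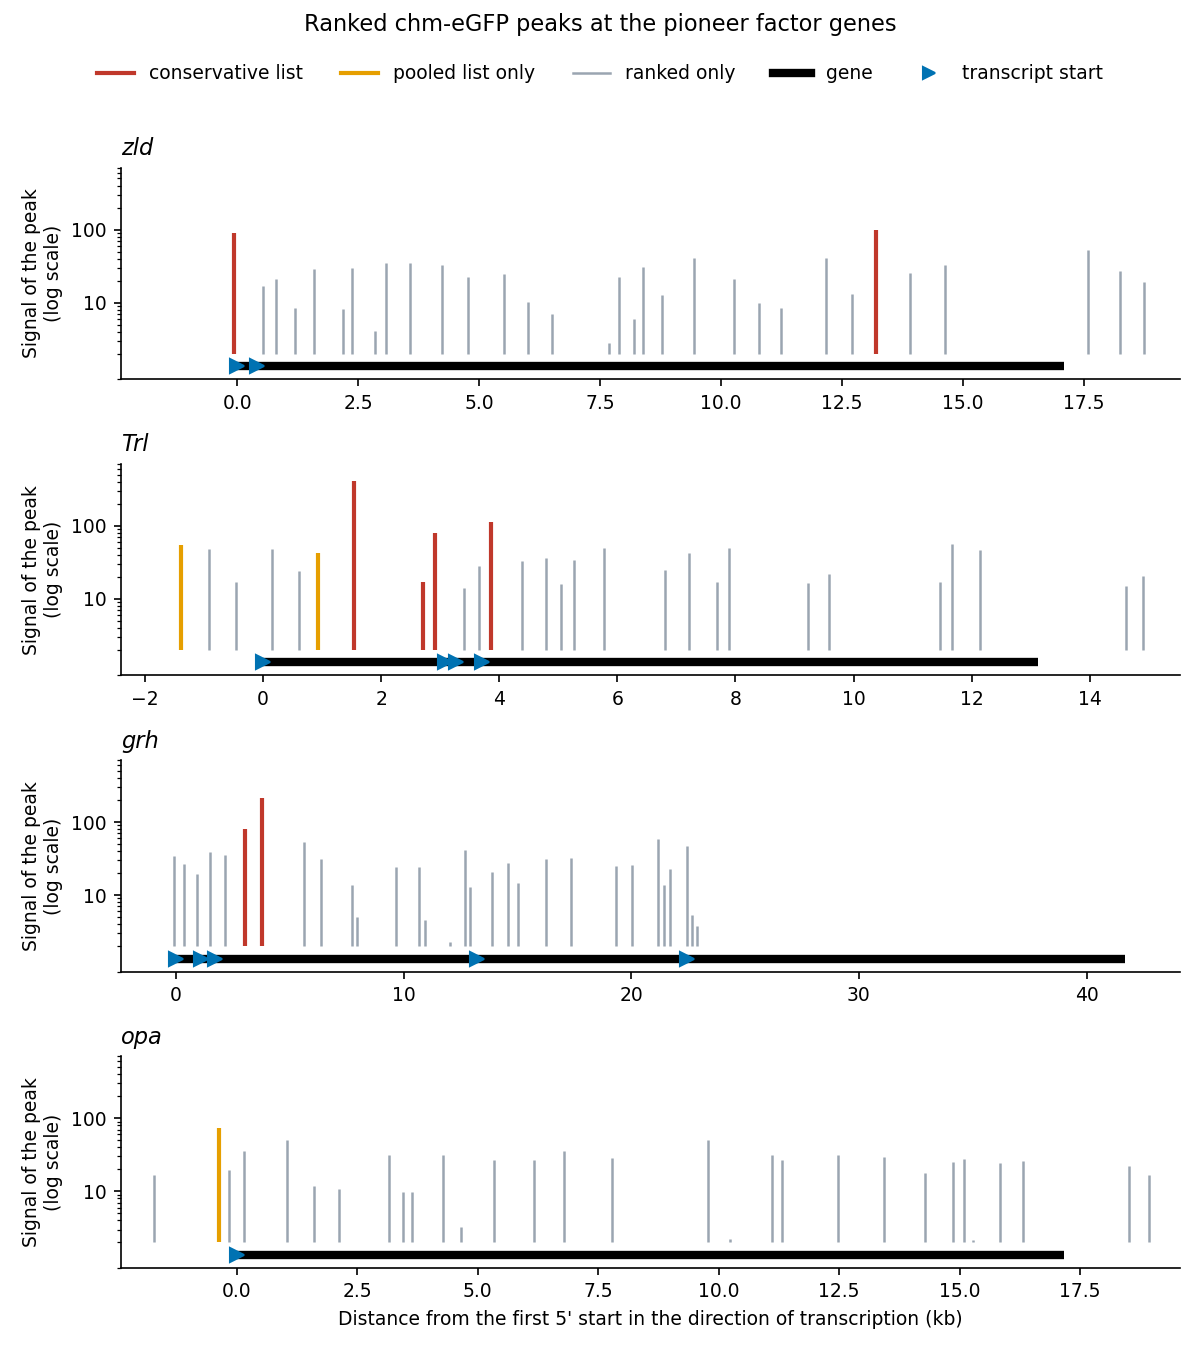
Peaks of the replicate-pair ranked list along the 4 genes, each panel running from the first start in the direction of transcription (kb, horizontal axis), with the height of each line giving the deposited signal on a log scale. Red lines are the 8 peaks of the conservative list, orange lines peaks of the pooled list alone and grey lines peaks ranked without passing the threshold; the black bar is the gene and blue triangles are transcript starts. Red lines lie around the starts of Trl and in the first part of grh, and zld has 1 at its start and 1 toward its 3′ end.

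The gene of Zelda lies at chrX:19766465-19783548 on the minus strand, with 5 transcripts from 2 starts. The intronic peak (chrX:19770166-19770501) had the higher signal of the gene's pair, 99.95 at rank 1869, against 89.6 at rank 2285 for the promoter peak (chrX:19783446-19783781). In replicate 1 the intronic site had a signal of 60.5 and in replicate 2 of 32.4, a mean of 46.5 ± 19.9 (SD, n = 2). The promoter site had 39.2 in replicate 1 and 47.6 in replicate 2, a mean of 43.4 ± 5.95 (SD, n = 2). The order of the sites was thus opposite in the replicates, and their means differed by less than the spread of the intronic site. The intronic peak passed the threshold of replicate 1 alone and the promoter peak that of replicate 2 alone.

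The promoter summit of zld lay 66 bp upstream of the start used by 4 of its 5 transcripts. The intronic summit lay 12809 bp downstream of the other start, in intron 2 of zld-RD and in no other zld transcript. The start of CG12702, the next gene on the same strand, was nearer to that summit, at 5460 bp. Ranked peaks that did not pass the threshold were spread along the gene. There were 32 ranked peaks, past the threshold or not, in and around zld in the replicate-pair list, 15.2 per 10 kb. All sequence of the main arms, genes or not, held 7.75 per 10 kb. Of those outside the conservative list the strongest had a signal of 53.2, and the one with the lowest IDR had a signal of 40.7 and an IDR of 0.0343, where the IDR is the irreproducible discovery rate, with a limit of 0.01 for the lists past the threshold. The last zld peak inside had an IDR of 0.00279.

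Trl encodes GAGA factor from chr3L:14747929-14761049 on the minus strand, with 10 transcripts from 4 starts. Its strongest peak (chr3L:14759354-14759652) had a signal of 409 and ranked 96 in the conservative list. The replicates gave 201 and 205, a mean of 203 ± 2.80 (SD, n = 2), and placed the peak at rank 130 of 3554 in replicate 1 and rank 93 of 4106 in replicate 2. It was the highest peak of any of the 4 genes in both replicates, with no overlap in value with the other 7. Of the 4050 protein-coding genes with a peak, 189 (4.67%) had a strongest peak at least as high as that of Trl. The summit lay in intron 2 of Trl-RF, the transcript from the outermost start, and 1539 bp upstream of the start that 7 transcripts use.

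The other 3 conservative peaks of Trl were promoter peaks around the inner starts. The peak at chr3L:14757022-14757357 had a signal of 114 (rank 1474), with 67.3 in replicate 1 and 38.5 in replicate 2, a mean of 52.9 ± 20.3 (SD, n = 2). Its summit lay 146 bp downstream of the start of Trl-RJ, in a 5′ untranslated exon of all 10 Trl transcripts and inside CG42507, a protein-coding gene that shares a start with Trl. The peak at chr3L:14757970-14758305, upstream of the main start by 176 bp, had a signal of 79.7 (rank 2753), with 56.8 in replicate 1 and 55.7 in replicate 2. These values come from different summits, at 14758292 in replicate 1 and 14758087 in replicate 2, so their closeness does not show agreement at 1 summit. At the Trl-RJ start replicate 1 was 1.75 times replicate 2.

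The weakest peak (chr3L:14758179-14758514), at 385 bp upstream of the main start, overlapped the preceding one and had a signal of only 17.2 (rank 4069). Replicate 1 had a single peak across both, with a summit at 14758292 and a signal of 56.8, which is therefore the same value for both peaks. Replicate 2 had separate summits at 14758087 and 14758294, with signals of 55.7 and 27.9. These overlapping peaks are thus 1 site in replicate 1, and the 4 Trl peaks cover 3 separate regions.

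All 4 conservative peaks of Trl matched a peak in the lists of both replicates, the overlapping ones matching the same peak of replicate 1. Of all protein-coding genes 282 (2.02%) had at least 4 conservative peaks by the same rule, and among genes of 10 kb or longer 10.7% did. The list of replicate 2 held 8 Trl peaks and that of replicate 1 held 4. The further peaks of replicate 2 had signals from 6.56 to 45.2, the highest of them 53 bp from the start of Mgat4a, the neighbouring gene on the other strand. The further peak of replicate 1, with a signal of 41.5, lay 3552 bp downstream of the Trl-RJ start. The pooled list added a peak at chr3L:14762273-14762608 with a signal of 54.6, inside Mgat4a and in its promoter, and a peak at chr3L:14759947-14760282 with a signal of 42.0 in the Trl-RF intron. The first missed the conservative threshold by little, with an IDR of 0.0101.

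**Figure D2:**
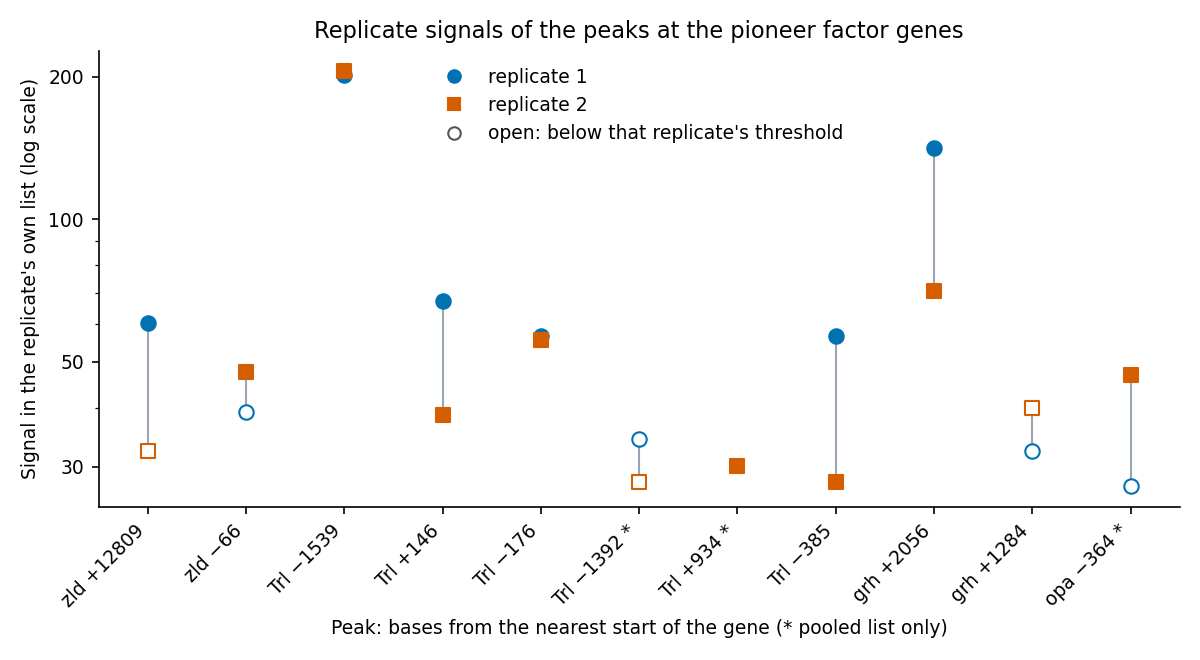
Signal of each peak at the 4 genes in the ranked list of replicate 1 (blue circles) and of replicate 2 (orange squares), log scale, with open symbols where the peak did not pass the threshold of that replicate; names on the horizontal axis give the distance in bases from the nearest start, and an asterisk marks peaks of the pooled list alone. The symbols coincide for the strongest Trl peak (201 and 205) and stand farthest apart for the stronger grh peak (141 and 70.7) and for Trl −385, whose replicate 1 value is shared with Trl −176; Trl +934 had no matching peak in replicate 1.

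Grainyhead is the epithelial member of the set. Its gene, at chr2R:17801132-17842820 on the plus strand, is the longest of the 4, with 8 transcripts from 5 starts. The stronger peak (chr2R:17804910-17804996) had a signal of 215 and ranked 411. Replicate 1 gave 141 and replicate 2 gave 70.7, a mean of 106 ± 49.97 (SD, n = 2), so that replicate 1 was 2.00 times replicate 2. It was in the lists of both replicates, at rank 280 of 3554 and rank 1002 of 4106. The weaker peak (chr2R:17803983-17804318) had a signal of 79.5 and ranked 2763, with 32.3 in replicate 1 and 39.9 in replicate 2, a mean of 36.1 ± 5.37 (SD, n = 2). The stronger site exceeded the weaker one in both replicates. The weaker peak was in neither replicate's own list past the threshold, the only one of the 8 of which this was so.

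Both grh summits lay in the first part of the gene, 2056 and 1284 bp downstream of the start that grh-RH, grh-RI and grh-RL use. They fell in intron 1 of grh-RH, grh-RI, grh-RJ and grh-RL, and in intron 2 of grh-RP. No grh start had a conservative peak within 500 bp. At the start used by grh-RN and grh-RO a ranked peak lay 10 bp downstream with a signal of 46.3 and an IDR of 0.0239, outside the limit. The last grh peak inside the limit had an IDR of 0.0057. An annotated transposable element, roo, spans chr2R:17818916-17827837 within grh and holds the grh-RN start and its ranked peak. Ranked peaks were fewer per length than at the other genes, with 30 in the replicate-pair list or 6.57 per 10 kb. None of these lay in the last 20.8 kb of the gene and its window, where the ranked list of replicate 1 had 13 and that of replicate 2 had 1.

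Odd-paired is encoded at chr3R:4852813-4869979 on the plus strand, by 2 transcripts from 1 start, and was the gene without a conservative peak. Its strongest ranked peak (chr3R:4852281-4852616) was a promoter peak 364 bp upstream of the start, with a signal of 74.4. Replicate 1 gave 27.3 and replicate 2 gave 46.9, a mean of 37.1 ± 13.8 (SD, n = 2). The signal was not far below the 79.5 of the weaker grh peak, and the replicate means of these 2 sites, 37.1 and 36.1, differed by less than their spread. The IDR of the opa peak was 0.0101, against a limit of 0.01. It passed the threshold of the pooled list, at rank 3433, and of replicate 2, at rank 2393, but not that of replicate 1. The absence of opa from the conservative list therefore rests on a narrow margin. With it, 30 ranked peaks lay along opa, and their median signal was 26.3, between the 22.1 of zld and the 33.5 of Trl.

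Across the 8 conservative peaks, 6 matched a peak of replicate 1, 6 one of replicate 2, 5 one of both and 1 none. The signal was higher in replicate 1 at 5 peaks and in replicate 2 at 3, and the ratio of replicate 1 to replicate 2 ran from 0.81 to 2.04. The overlapping Trl peaks share a single peak of replicate 1, which counted for both in these tallies and gave the ratio of 2.04. Over all 4195 conservative peaks the larger of the replicate signals was at median 1.32 times the smaller, and at least 1.5 times the smaller in 32.4% of peaks. By strongest peak the genes ran Trl, grh, zld, opa in the pooled list. In replicate 1 the order was the same, with 201, 141, 60.5 and 33.7 in the ranked list. In replicate 2 the values were 205, 70.7, 47.6 and 46.9, so zld and opa were nearly level. The strongest site differed between replicates at both of these genes. At zld it was the intronic site in replicate 1 and the promoter in replicate 2. At opa it lay 6752 bp downstream of the start in replicate 1 and at the promoter in replicate 2. Of the 4050 genes with a peak, whose median strongest signal was 115, 666 (16.4%) reached the level of grh and 2462 (60.8%) that of zld.

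The strongest conservative peak of each gene that had one, by its signal in that list, was AT-rich, a pattern chosen after the values were seen. At zld this did not hold in replicate 2, where the GC-rich promoter site (47.6) exceeded the intronic site (32.4). G and C bases made up 26.9% of the window of 201 bp at the strongest Trl peak, 29.4% at the intronic zld peak and 32.3% at the stronger grh peak, all of them intronic. The other peaks were richer, with 38.3, 47.3 and 49.8% at the Trl promoter peaks, 47.3% at the weaker grh peak and 59.7% at the zld promoter. The opa promoter peak of the pooled list had 62.2%. The median over all conservative peaks was 42.8%, and 515 of 4195 (12.3%) had 32.3% or less. Among intronic peaks 171 of 1205 (14.2%) did, and among promoter peaks 258 of 2159 (11.95%). Stronger peaks were poorer in G and C throughout the list, from a median of 37.8% at ranks 1 to 500 to 44.8% at ranks 2001 to 4195, here among the peaks on the main arms. All words of 31 bases in the 11 windows of the 4 genes occurred once, as exact matches, in the chromosome sequences, with unplaced scaffolds left out. How base composition bears on the signals was not tested.

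**Figure D3:**
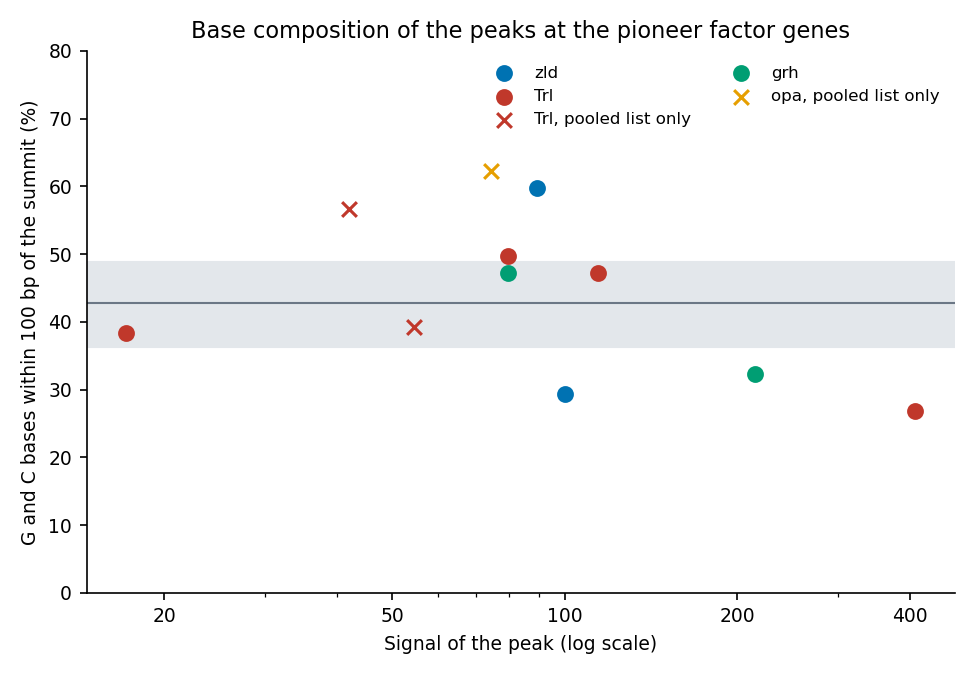
Share of G and C bases within 100 bp of the summit (%, vertical axis) against the deposited signal (log scale, horizontal axis) of each peak at the 4 genes, with circles for the conservative list and crosses for the pooled list alone. The line is the median of all conservative peaks (42.8%) and the grey band runs from the 25th to the 75th percentile (36.3 to 48.8%). By the signal drawn, the strongest peaks of Trl, grh and zld lie below the band. In replicate 2 the strongest zld site was the promoter, which lies above it.

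Letters that the 4 factors recognise were searched on both strands in the same windows, and a match is a description of the sequence, not of a bound site. CAGGTA, the Zelda letters, occurred in 1 of the 8 conservative windows, with 2 matches 55 and 68 bp downstream of the weaker grh summit, beside 4.53% of all conservative peaks and 4.30% of windows around 1 start per gene. GAGAG occurred in 2 of 8 windows, beside 33.1% of all peaks and 22.5% of starts. Its matches were 3 at the Trl peak upstream of the main start, at 12 bp downstream and 78 and 83 bp upstream of the summit, and 1 at the stronger grh peak, 51 bp upstream. The pooled-only peak in the Trl-RF intron held 2 more. ACCGGTT occurred in 1 of 8, 3 bp downstream of the summit of the weakest Trl peak, beside 0.882% of peaks and 1.30% of starts. GAGAG lay at a peak of its own factor's gene, CAGGTA at none of the zld windows and ACCGGTT at none of the grh windows. With so few windows and the shares over all peaks given above, these counts are not a result about the genes. CCCCGCTG (Odd-paired core), TGANTCA (AP-1) and TATCGATA (DRE) were in none of the 8, beside 0.381, 4.24 and 2.98% of all peaks.

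Genes that work with these factors were counted by the same rule, beside the 29.0% of all genes. Of the genome activation factors 7 of 9 had a conservative peak, with a median strongest signal of 136 against 115 over all genes with a peak. The highest were nej, the acetyltransferase CBP, with 272, Stat92E, the JAK pathway factor, with 147, and fs(1)h, a bromodomain protein, with 138. No peak at nej lay within 500 bp of a start of that gene. Clamp, which binds GA repeats, and hb, a gap factor, had no conservative peak. Of the partners of GAGA factor 6 of 9 had a peak, at a median of 158. Caf1-55, a histone chaperone, led with 1087 from a peak inside or within 2 kb of the gene. That peak was not within 500 bp of a start of Caf1-55 and may belong to a neighbouring gene. The BTB proteins mod(mdg4) and lola followed with 322 and 230, and the remodeller subunits Iswi and Nurf-38 had none.

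Early zygotic genes, classic targets of Zelda, had a peak in 3 of 14 cases (21.4%), with a median of 121. These were Sry-alpha, a gene of cellularisation, at 157, sog, a BMP inhibitor, at 121 and brk, a repressor of Dpp targets, at 70.6, while bnk and gt were among those without. Segmentation genes that act with opa had one in 3 of 11, namely the pair-rule gene hry at 103, the segment polarity gene en at 64.7 and the Wnt ligand gene wg at 45.5. Their median of 64.7 was the lowest of the lists, and the pair-rule genes eve and ftz had none. Epidermal barrier genes, where Grainyhead acts, had one in 5 of 11, with a median of 164. The kinase gene msn had 306, cora, a septate junction gene, 205 and the adhesion gene Fas3 164, whereas Ddc and kkv, both of cuticle formation, had none. The lists are short, differ in gene length and carry no test.

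**Figure D4:**
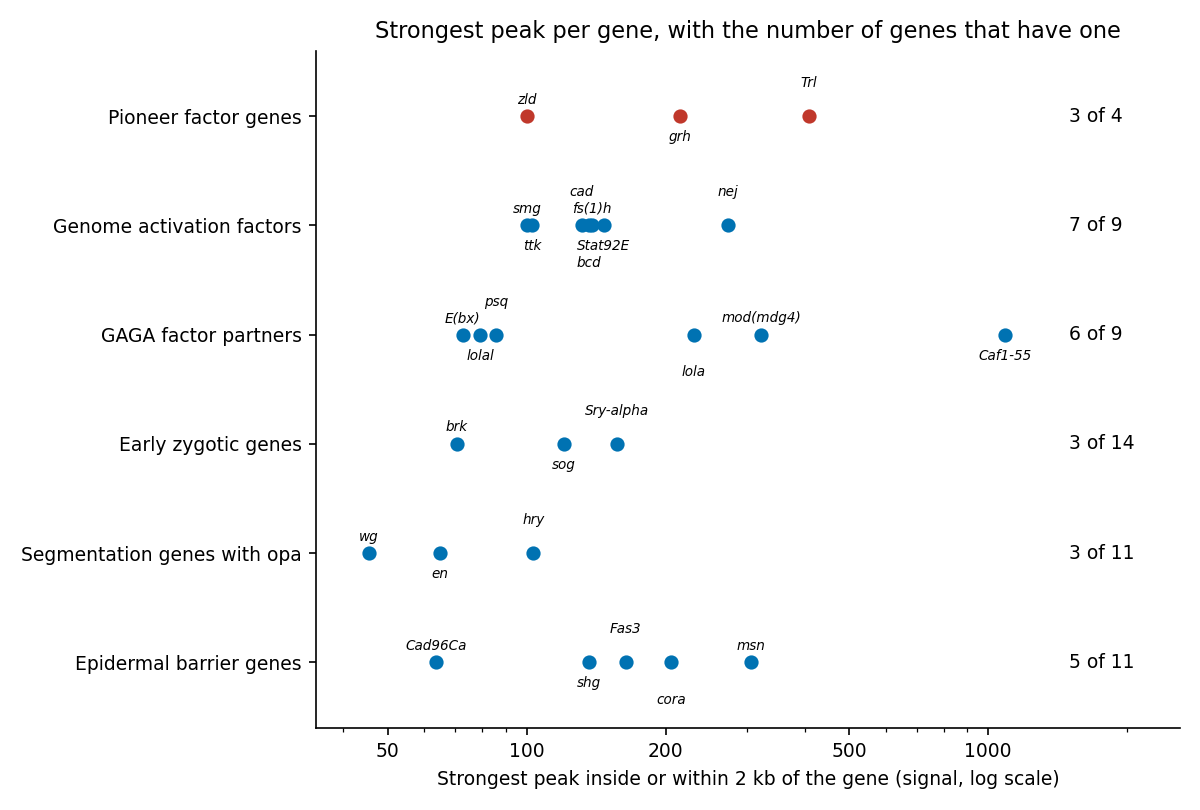
Signal of the strongest conservative peak inside or within 2 kb of each gene (log scale, horizontal axis) for the 4 pioneer factor genes (red) and 5 lists of related genes (blue), with the number of genes that had a peak at the right. Genes without a peak are not drawn; Trl (409) lies above all listed genes except Caf1-55 (1087).

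Genes most like the members were those with the same number of conservative peaks and the nearest pair of replicate signals at the strongest one, measured as a distance on the log2 scale over both replicates. For zld, of 830 candidates, these were CG11069 and CG31121 at 0.08, which share a peak of signal 84.8. For Trl, of 137 candidates, they were JIL-1 at 0.09 with a signal of 423 and Gug at 0.27 with 392. For grh they were Pka-C3 at 0.04 with 217 and RpL17 at 0.14 with 208. The likeness covers 2 values per gene and says nothing of position or function.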

How the data were processed

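Chromatin immunoprecipitation with sequencing was done on 2 samples, biological replicates 1 and 2 of 1 group, per the labels; nothing further says how the embryo collections were separated, so the SDs describe these samples. The deposited files are peak lists on dm6, per the file names, past an IDR threshold (conservative, pooled and per replicate) or ranked (118204 pooled, 108273 for the replicate pair, 104106 and 88563 for replicates 1 and 2). Which aligner and peak caller made them is a detail not given in the sources used here, and the file notes name an input they do not describe. The deposited signal is a value of the peak caller, on a scale that is not stated. The deposited −log10 column of the ranked lists holds the IDR. The replicate-pair list gives a signal from each replicate, from which means and SDs were taken; the replicates were told apart through their own lists.

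Summits (start plus offset) were placed on Ensembl release 115 models (BDGP6.54), with coordinates counted from 1. Peaks of different lists were matched when the summit of either lay inside the other. Motifs were exact letters within 100 bp of a summit, or within 100 bp of the outermost start per gene. Named were the 4 genes, each conservative peak, coding genes nearer to or holding a summit, per list the 3 strongest genes and the first 2 by symbol without a peak, and the 2 most alike genes. The listed symbol stit was matched to Cad96Ca. Members, lists and motifs were chosen with earlier results of these data known. Wilson intervals cover counting error only. No test was made, since 1 group of 2 samples offers no contrast. Scripts used Python 3.11.15, pandas 2.3.3, numpy 2.4.6 and scipy 1.17.1, and the counting steps were tested on simulated data.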

Additional observations from a re-analysis of the deposited data

How the results depend on the processing

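Peaks at 3 of the 4 genes were found in the conservative list, also when summits had to lie inside the gene, with a window of 5 kb, with any overlap of the peak and with the stronger 50% of peaks; the pooled list gave 4, and leaving out 1 replicate gave 3 to 4. The share of all protein-coding genes with a peak, 29.0%, was 11.9% for summits inside the gene, 40.2% with 5 kb, 35.7% in the pooled list, 19.1% for the stronger 50%, 52.4% for genes of 10 kb or longer (added after the values were seen) and 24.4 to 29.4% with 1 replicate left out. With 50 bp on each side of the summit CAGGTA was in 0 windows in place of 1, and GAGAG in 1 in place of 2. With 1 replicate left out, the peak of opa appeared in replicate 2 alone, Trl had 4 to 8 peaks, and the strongest signal ran from 47.6 to 60.5 at zld, 201 to 205 at Trl and 70.7 to 141 at grh, on the scale of the single lists. The zld values come from different sites, the promoter in replicate 2 and the intron in replicate 1. No paired analysis was possible because there is 1 group. Without read totals, whether a missing peak reflects depth cannot be told apart from low signal.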

Other observations

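Ranked peaks, those past the threshold included, were denser at 3 of the 4 genes than over the genome. In the replicate-pair list zld had 15.2 ranked peaks per 10 kb, Trl 16.4 and opa 14.2, where the genome held 7.75 and grh 6.57. In the separate ranked lists the values were 15.7, 12.3, 16.1 and 9.85 per 10 kb in replicate 1, in the order zld, Trl, opa, grh, and 12.3, 14.6, 11.8 and 5.91 in replicate 2, with 7.47 and 6.40 over the genome. Thus zld, Trl and opa lay above the genome value in both replicates, and grh above it in replicate 1 and below it in replicate 2. These densities were looked at after the values were seen, and their relation to depth, mappability or gene activity was not tested. The genome value covers all sequence of the main arms, and no value for genes of like length was taken. Some adjacent ranked peaks hold the same pair of replicate signals, such as the opa summits 4852449 and 4852650 (27.3 and 46.9), and were counted separately. The densities are therefore not a result about these genes.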
